A study of Mus musculus with 3 samples.

Results

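Gene expression was compared between IL-10-producing plasma cells of mouse bone marrow and B220+ cells of the spleen, with 1 array for each population, so 2 of the 3 arrays of the study. All cells came from mice that carry a Venus reporter, a fluorescent protein made where Il10 is expressed. The bone marrow sample held cells sorted as Venus+ with high surface CD138 (syndecan-1), the spleen sample held cells sorted for B220, the CD45 isoform of B cells, and the third array held spleen cells sorted as Venus+ with high CD138. Cells were sorted freshly isolated, with no treatment named in the labels. The sources used here do not give the number of mice per sample or the B220 gate of the Venus+ cells. Every one of the 16390 genes with a named probe was a member of the comparison, and the genes are described below by function.

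Plasma cells are the end stage of B cell differentiation and live by secreting antibody. They load immunoglobulin chains into the endoplasmic reticulum (ER), fold and glycosylate them there, and export them through the Golgi, and they shut down the transcription factors and the antigen receptor signalling of the B cell. The unfolded protein response, run by the sensors IRE1, PERK and ATF6, adjusts the folding capacity of the ER to its load. Some plasma cells also release IL-10, a cytokine that restrains inflammation. Spleen B220+ cells are for the most part resting B cells.

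Each value below is a normalized signal, the fluorescence of a probe less the blank level of its array and scaled so that the median of the detected probes is 25. Signals are given in the order bone marrow Venus+, spleen B220+ and spleen Venus+ cells. A log2 ratio is that of bone marrow Venus+ over spleen B220+ cells, relative to the median of the 10814 genes detected on both arrays, which itself lay at -0.24 (B220+ 1.18-fold brighter). The value after ± is the technical error expected from the blank spots and from the repeated positive control spots of both arrays, called the spot error here. It holds no variation between animals or sorts, and with 1 array per population no test between the populations can be made. Organ, cell type and Venus expression differ together between the 2 arrays and cannot be told apart, nor can fewer cells of a type and less RNA per cell. The spleen Venus+ value is set beside the others for reference, and any ratio it forms shares the B220+ array with the one described.

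A gene was called higher or lower where its relative ratio reached 2-fold. By that rule 2951 of 10814 genes (27.3%) were higher in the marrow plasma cells and 2714 (25.1%) were lower. These shares over all genes are the background for every gene group below. They changed with signal, as given in the next paragraph, and are not matched to the signal of a group. At 4-fold the counts were 1196 and 1050, at 16-fold 202 and 86, and at 64-fold 54 and 7. A further 711 of the 12875 genes detected on either array (5.52%) were detected in the marrow cells alone and 1350 (10.5%) in the B220+ cells alone. For such a gene the difference is given as a lower bound, against the lowest detected signal of the other array. The bound reached 2-fold for all 711 genes of the marrow cells alone and for 483 of the 1350 genes of the B220+ cells alone. The lowest detected signals were 2.4 in the marrow and 1.3 in the B220+ cells. A dim gene detected in the B220+ cells alone, in the lists below too, is thus not shown to be lower. With these lowest signals and the centring, any gene detected in the marrow cells alone passes 2-fold. That all 711 did so was fixed in advance, and a dim gene among them is not shown to be higher. The genes nearest the upper threshold were Lrrc29 (signals of 21.8, 12.9 and 17.5), just past it, and Anpep (92.2, 54.6 and 81), just short of it, both at 1.0 after rounding. At the lower threshold they were Zfp607b (7.6, 18 and 12.2), just past it, and Pigv (16.6, 39.3 and 36.4), just short of it, both at -1.0.

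The ratio moved with the signal. In 5 equal bins of the genes from dim to bright, the median log2 ratio was 0.80, 0.35, -0.22, -0.49 and -0.32, and the share called higher went from 44.1% in the dimmest bin to 17.0% in the brightest, while the share called lower went from 9.48% to 30.5%. The scanner's local background beside each spot followed the signal of the spot itself (Pearson r of the log2 values over the spots 0.954 on the marrow array and 0.967 on the B220+ array). Its median was 43.2 on the marrow array and 46.5 on the B220+ array. Whether settings that subtract this background remove signal too was not tested. Local background subtraction alone gave 2212 genes higher and 2463 lower. The normexp correction uses the local background too, and adds an offset of 50 to each spot. The median spot read 51.2 on the marrow array and 60.5 on the B220+ array before correction, so the offset makes ratios smaller. With normexp 322 genes were higher and 985 lower, so 24.6% of the calls were higher against 52.1% in the main values. The shares of the background and of the offset in this were not tested. Normexp changed the sign of 24 of the 390 named genes past 2-fold and local background subtraction that of 10 of 371, and their values under it stand beside them. The part of the signal level in the differences of dim genes was not tested. Where 2 probes of a gene were measured on both arrays (104 genes), their ratios differed by a median of 1.08, and 9 genes had probes called opposite ways.

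**Figure D1:**
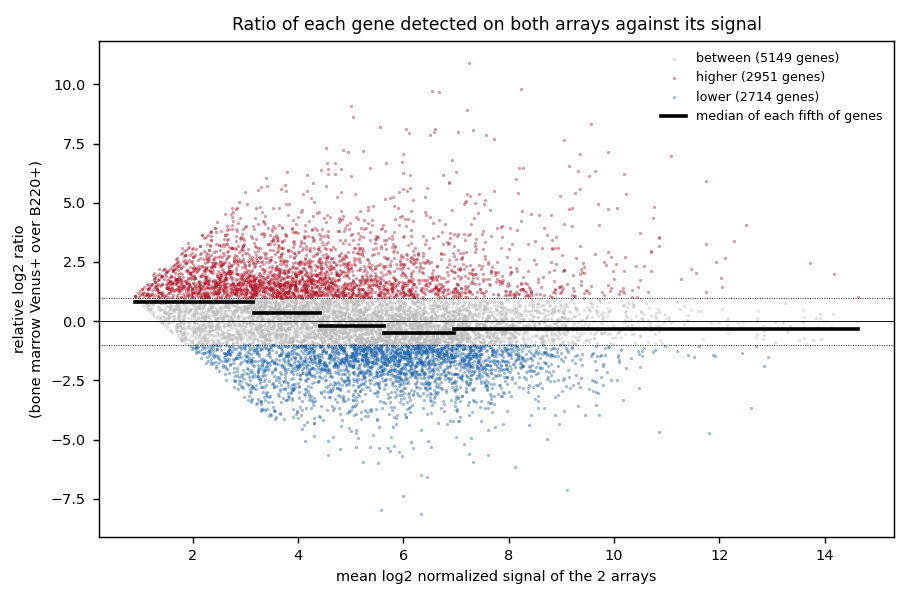
Relative log2 ratio of bone marrow Venus+ over spleen B220+ cells (vertical axis) against the mean log2 normalized signal of the 2 arrays (horizontal axis) for the 10814 genes detected on both. Red points are the 2951 genes at least 2-fold higher, blue points the 2714 at least 2-fold lower, grey points the rest, and black bars the median of each of 5 bins of genes by signal, which lies at 0.80 in the dimmest bin and at -0.32 in the brightest.

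The sorted populations carried the markers of their labels. The summed signal of the plasma cell markers was 34152, 2425 and 30556, and all 8 of those measured on both arrays were higher in the marrow cells. B cell markers summed to 4584, 30129 and 12094. Signals of Il10, the cytokine whose reporter defined the sort, were 91.3, 5.9 and 88.8, for a log2 ratio of 4.20 ± 0.21. Sdc1, which encodes CD138, read 219.5, 2.5 and 128 (log2 ratio 6.70 ± 0.41). Prdm1, the plasma cell regulator Blimp-1, gave signals of 34.4, 8.7 and 81.5, a log2 ratio of 2.23 ± 0.18. Signals of Ms4a1, the B cell surface protein CD20, were 334, 10153 and 2619, for a log2 ratio of -4.68 ± 0.13. Tent5c, a poly(A) polymerase that lengthens the tails of secretory mRNAs, read 608, 1.8 and 467 (log2 ratio 8.64 ± 0.55). Markers of other cells were also read on the arrays. The neutrophil list summed to 657, 5655 and 173, with 16, 16 and 8 of 21 genes detected, and its granule genes Camp, Ngp, Ltf and Lcn2 were brightest in the B220+ sample. S100a9, a calcium-binding protein abundant in neutrophils, gave signals of 69.5, 2553 and not detected, a log2 ratio of -4.96 ± 0.13. Signals of Camp, the neutrophil granule peptide cathelicidin, were 21, 491 and not detected, for a log2 ratio of -4.30 ± 0.16. Ly6g, the surface marker of mature neutrophils, read 334, 38.9 and 99.6 (log2 ratio 3.35 ± 0.13). The granule genes and Ly6g thus stood on opposite sides. T cell markers summed to 1777, 464 and 1847 (14, 16 and 18 of 20 detected), of which Cd28 and Cd247 made up most in the marrow sample. Cd247, the zeta chain of the T cell receptor, gave signals of 1039, 15.7 and 637, a log2 ratio of 6.29 ± 0.15. Signals of Cd3d, a chain of the CD3 complex, were 24.5, 7.9 and 39.3, for a log2 ratio of 1.88 ± 0.19. The defining chain Cd3e was detected in the marrow cells (17.8, not detected and 7.6), under the median detected signal of 25. The erythroid list summed to 78.1, 367 and 67.8, the NK cell list to 424, 48.6 and 243, the monocyte and macrophage list to 362, 161 and 230, the dendritic list to 365, 257 and 325, the megakaryocyte list to 51.9, 91.5 and 59.3, the stromal list to 137, 222 and 142 and the immature B cell list to 351, 2519 and 438. A sum follows the brightest genes. Of members measured on both arrays, 1 of 7 erythroid genes was higher and 3 lower, and 3 of 4 NK genes higher and 0 lower. Higher and lower members numbered 4 and 3 of 10 for monocytes and macrophages and 4 and 2 of 12 for dendritic cells. They numbered 0 and 1 of 6 for megakaryocytes, 5 and 2 of 8 for stromal and 1 and 1 of 3 for immature B cell markers. The stromal median log2 ratio was 1.37 (0.07 with the normexp correction and 0.79 with local background subtraction), though the stromal sum was lower in the marrow cells. The basophil, mast cell and eosinophil list summed to 7522, 152 and 6079, most of it from Prg2 and Il13, while Epx, Siglecf, Fcer1a and Cma1 were detected on neither array. Prg2 is also on the plasma cell marker list, so it counts in both. Higher and lower members numbered 6 and 0 of 9 here, 9 and 1 of 12 for T cell markers and 3 and 10 of 14 for neutrophil markers. The part of these cells in the differences below was not tested.

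The unfolded protein response is known to act through short sequences in the promoters of ER folding genes. The ER stress response element (ERSE) is CCAAT, 9 bases of any kind and CCACG; NF-Y binds its CCAAT and ATF6 or XBP1 its CCACG. RefSeq windows of GRCm38.p6, from 250 bases before to 50 after the gene start, were taken for 13127 genes of the array and searched for it on both strands. It was in the windows of 21 genes (0.16%). Of the 17 measured on both arrays 9 (52.9%) were higher in the marrow plasma cells and 3 (17.6%) lower, with a median log2 ratio of 1.93 (0.12 with the normexp correction), against 26.8%, 25.3% and -0.02 among the 8729 genes with a window and a ratio. A match is a run of letters and says nothing of binding. The matches of the 9 higher genes are shown as read on the strand of the gene, with the CCAAT and CCACG blocks, or their complements ATTGG and CGTGG, in capitals.
Derl3, chr10:75893242-75893260, plus strand: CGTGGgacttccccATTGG
Creld2, chr15:88819520-88819538, plus strand: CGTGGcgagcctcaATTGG
Dnajc3, chr14:118937827-118937845, plus strand: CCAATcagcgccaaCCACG
Hsp90b1, chr10:86705638-86705656, minus strand: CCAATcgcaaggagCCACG
Hsp90b1, chr10:86705533-86705551, minus strand: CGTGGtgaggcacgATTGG
Hspa5, chr2:34772025-34772043, plus strand: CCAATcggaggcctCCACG
Ero1b, chr13:12565682-12565700, plus strand: CGTGGtcccgcctcATTGG
Calr, chr8:84847075-84847093, minus strand: CGTGGtcgaccctcATTGG
Pdia6, chr12:17266491-17266509, plus strand: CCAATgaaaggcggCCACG
Acnat2, chr4:49408217-49408235, minus strand: CCAATattttttttCCACG
Their ratios ran from 7.71 for Derl3 to 1.93 for Acnat2, and 8 of the 9 genes encode ER proteins, all but Acnat2, an acyltransferase. The other members measured were Calr4 (0.70), Adcy3 (0.38), Canx (0.16), Syvn1 (-0.17), Xlr3b (-0.62), Alg12 (-1.27), Hnrnpa3 (-2.55) and Pan2 (-2.69). Acacb was detected in the B220+ cells alone, and Ptgdr2, Spats2l and Zfp57 on neither array.

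The 250 bases before the start are shown for 3 of the 9 higher genes: Hspa5, the main ER chaperone BiP, Hsp90b1, its partner GRP94, and Derl3, a derlin of ER-associated degradation.
Hspa5, chr2:34771840-34772089, plus strand: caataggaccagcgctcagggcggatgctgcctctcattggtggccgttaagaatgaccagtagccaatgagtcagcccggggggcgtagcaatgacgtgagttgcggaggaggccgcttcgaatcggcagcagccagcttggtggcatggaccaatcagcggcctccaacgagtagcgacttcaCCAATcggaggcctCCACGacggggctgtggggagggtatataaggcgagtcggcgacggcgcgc
Hsp90b1, chr10:86705445-86705694, minus strand: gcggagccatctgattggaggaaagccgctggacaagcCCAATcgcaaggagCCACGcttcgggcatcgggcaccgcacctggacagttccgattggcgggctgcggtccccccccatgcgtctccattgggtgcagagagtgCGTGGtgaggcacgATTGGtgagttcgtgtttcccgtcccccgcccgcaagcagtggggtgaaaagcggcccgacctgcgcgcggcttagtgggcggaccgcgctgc
Derl3, chr10:75893148-75893397, plus strand: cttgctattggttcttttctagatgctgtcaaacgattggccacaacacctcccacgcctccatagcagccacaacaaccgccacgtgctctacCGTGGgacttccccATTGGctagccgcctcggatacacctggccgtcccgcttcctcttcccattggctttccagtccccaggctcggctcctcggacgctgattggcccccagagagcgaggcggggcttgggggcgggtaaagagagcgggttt
Hsp90b1 held 2 separate matches. Hspa5 read 8551, 1795 and 7266 (log2 ratio 2.50 ± 0.13). Hsp90b1 gave signals of 10232, 1913 and 9603, a log2 ratio of 2.66 ± 0.13. Signals of Derl3 were 2796, 15.8 and 2375, for a log2 ratio of 7.71 ± 0.15. All 3 were bright in both plasma cell samples, and Derl3 was the 1 of them under the median detected signal of 25 in B220+ cells.

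Creld2 and Alg12 lie head to head on chromosome 15, and their windows share the same match at chr15:88819520-88819538. Creld2, an ER-resident protein induced by ER stress, read 2667, 119.6 and 1925 (log2 ratio 4.72 ± 0.13). Alg12, a mannosyltransferase of the lipid-linked glycan, gave signals of 9.9, 28.2 and 31.2, a log2 ratio of -1.27 ± 0.22. The pair thus stood on opposite sides of the threshold with the match in common.

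**Figure D2:**
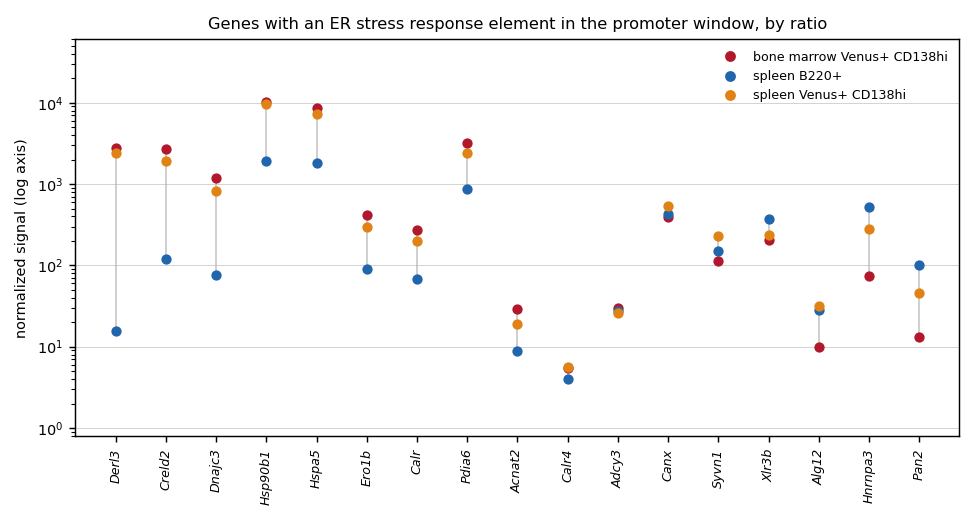
Normalized signal (log axis) of the 17 genes with an ER stress response element in the promoter window and a signal on both compared arrays, ordered by ratio. Red points are bone marrow Venus+, blue points spleen B220+ and orange points spleen Venus+ cells; the red point lies above the blue by at least 2-fold, relative to the median, for the 9 genes from Derl3 to Acnat2.

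Other elements were searched in the same windows. The unfolded protein response element TGACGTGG, whose complement holds CCACG and so can overlap the ERSE, was in 124 genes (0.945%); of 95 measured, 32 (33.7%) were higher and 13 (13.7%) lower. The cyclic AMP response element TGACGTCA was in 377 genes (2.87%), with 69 higher and 75 lower of 300. The interferon-stimulated element (GAAA, 2 bases of any kind and GAAA) was in 488 (3.72%), with 28.6% higher and 23.2% lower of 311. In the ER chaperone list 8 of 41 genes with a window (19.5%) held the ERSE. The shares for the cyclic AMP and interferon elements lay near those of all genes with a window.

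ER chaperones and folding enzymes had the highest median ratio of the gene lists after the plasma cell regulators. Of 47 members measured on both arrays, 27 (57.4%) were higher and 7 (14.9%) lower, with a median log2 ratio of 1.85 (0.49 with the normexp correction), while 1 was detected in the marrow cells alone. Fkbp11, a prolyl isomerase of the ER, read 567, 13.6 and 429 (log2 ratio 5.62 ± 0.15). Prdx4, the ER peroxiredoxin, which turns peroxide into disulfide bonds, gave signals of 2846, 123 and 1363, a log2 ratio of 4.78 ± 0.13. Signals of Sdf2l1, a cofactor of BiP, were 1945, 102 and 1397, for a log2 ratio of 4.50 ± 0.13. These 3 were dim or moderate in B220+ cells and bright in both plasma cell samples. BiP works with J proteins and exchange factors, and those listed next were higher. The J protein Dnajc10, named with the lower members below, was lower (log2 ratio -1.04). Dnajc3, a J protein that also inhibits PERK, read 1199, 75.6 and 822 (log2 ratio 4.23 ± 0.13). Dnajb9, the J protein ERdj4, gave signals of 262, 41.9 and 215, a log2 ratio of 2.89 ± 0.13. Signals of Dnajb11, the J protein ERdj3, were 1406, 339 and 1051, for a log2 ratio of 2.30 ± 0.13. Sil1, a nucleotide exchange factor of BiP, read 1067, 121 and 539 (log2 ratio 3.38 ± 0.13). The other exchange factor, Hyou1, was dim, with signals of 13.4, 6.2 and 17.1 (log2 ratio 1.36 ± 0.24).

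Protein disulfide isomerases form and shuffle disulfide bonds, and the 6 described next were higher. P4hb, the archetype PDI, gave signals of 1930.3, 439 and 1462, a log2 ratio of 2.38 ± 0.13. Signals of Pdia4 were 1511, 151 and 1778, for a log2 ratio of 3.57 ± 0.13. Pdia6 read 3194, 877 and 2393 (log2 ratio 2.11 ± 0.13). Pdia3, which acts on glycoproteins, stood at 2.18 ± 0.13, Txndc5 at 3.54 ± 0.13 and Erp44, which returns escaped enzymes from the Golgi, at 1.85 ± 0.13. PDI is reoxidized by Ero1 oxidases, and the pair of paralogs lay on opposite sides. Ero1b gave signals of 413, 91 and 294, a log2 ratio of 2.42 ± 0.13. Signals of Ero1a were 11.1, 27.2 and 24, for a log2 ratio of -1.05 ± 0.21. Of the lectin chaperones, Calr was higher (273, 67.4 and 199, log2 ratio 2.26 ± 0.13) and Canx, which is membrane-bound, lay between the thresholds (398, 423 and 535, log2 ratio 0.16 ± 0.13).

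Of the 7 lower members of the folding list, the lowest were Erp27 and Txndc16. Erp27, a PDI-like protein without a catalytic site, read 8.8, 124 and 14.7 (log2 ratio -3.57 ± 0.23). Txndc16, a thioredoxin-domain protein of the ER, gave signals of 58, 407 and 170.4, a log2 ratio of -2.57 ± 0.14. Tmx1 (-1.15 ± 0.13), Txndc12 (-1.05 ± 0.14), Dnajc10 (-1.04 ± 0.14) and Fkbp7 (-1.16 ± 0.35) were lower by smaller margins, and Ero1a is named above. The search of ER retention signals in protein sequences was not run, since no protein table was used here.

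Entry into the ER was the next group. In the list of translocon, signal recognition and signal peptidase genes, the 35 members measured on both arrays had a median log2 ratio of 1.08 (0.16 with the normexp correction), and 19 (54.3%) of them were higher and 1 (2.86%) lower, while 1 was detected in the marrow cells alone. Sec62, a translocon partner used by short secretory proteins, read 7093, 415 and 3005 (log2 ratio 4.34 ± 0.13). Sec61b, the beta subunit of the Sec61 channel, gave signals of 5539, 1617 and 4162, a log2 ratio of 2.02 ± 0.13. Signals of Sec61a1, the pore-forming subunit, were 526, 129 and 556, for a log2 ratio of 2.27 ± 0.13. The translocon-associated complex gave Ssr4 at 3.73 ± 0.13, Ssr2 at 2.47 ± 0.13, Ssr1 at 0.82 ± 0.13, which is below the threshold, and Ssr3 at 1.08 ± 0.13, with normexp -0.34. Signal peptidase removes the leader of the nascent chain. Sec11c, 1 of its catalytic subunits, read 9700.3, 1217 and 5357 (log2 ratio 3.24 ± 0.13). Sec11a, the alternative catalytic subunit, gave signals of 718, 717 and 556, a log2 ratio of 0.25 ± 0.13. Signals of Spcs2, an accessory subunit, were 5094, 665 and 2922, for a log2 ratio of 3.18 ± 0.13. Spcs1 stood at 2.91 ± 0.13 and Spcs3 at 1.46 ± 0.13. Thus the Sec11c form was higher while Sec11a lay at the level of the median gene.

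Signal recognition particle subunits differed little. Srp9 stood at 0.40 ± 0.13, Srp14 at 0.58 ± 0.13, Srp54a at 0.02 ± 0.13, Srp68 at 0.73 ± 0.13 and Srp72 at 0.30 ± 0.13, all between the thresholds, and Srp19 at 1.01 ± 0.13, with normexp -0.00. The receptor that docks the particle at the ER was higher in both subunits, Srpr at 2.20 ± 0.13 and Srprb at 1.55 ± 0.15. The 1 lower member was Get1, which inserts tail-anchored proteins (4.8, 14.6 and 9.6, log2 ratio -1.36 ± 0.38, with normexp 0.00).

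N-glycosylation attaches a preassembled glycan to the chain as it enters the ER. There were 18 higher (54.5%) and 3 lower (9.09%) genes among the 33 measured on both arrays, and the median log2 ratio was 1.28 (0.19 with the normexp correction), while 1 was detected in the marrow cells alone. Ddost, a subunit of the oligosaccharyltransferase, gave signals of 1264, 175 and 944, a log2 ratio of 3.10 ± 0.13. Signals of Krtcap2, a subunit that links it to the translocon, were 4245, 660.2 and 2613, for a log2 ratio of 2.93 ± 0.13. Rpn1, the subunit ribophorin I, read 1012, 223 and 829.6 (log2 ratio 2.43 ± 0.13). Rpn2 (2.03 ± 0.13), Tmem258 (2.42 ± 0.13), Ost4 (1.93 ± 0.18), Ostc (1.51 ± 0.13, with normexp -1.42 and with local background -1.09) and Dad1 (1.45 ± 0.13) were higher as well. The catalytic subunits split: Stt3a, which acts during translocation, was higher, and Stt3b, which acts afterwards, was not. Stt3a gave signals of 372, 184 and 379.5, a log2 ratio of 1.26 ± 0.13, with normexp -0.46. Signals of Stt3b were 139.7, 147 and 176, for a log2 ratio of 0.17 ± 0.13. Magt1 and Tusc3, the oxidoreductase subunits that work with Stt3b, stood at 0.98 ± 0.13 and -1.44 ± 0.15, with normexp 0.12.

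Several enzymes that assemble the lipid-linked glycan were higher. Dpagt1, the enzyme of the first step, read 175, 33.5 and 159.8 (log2 ratio 2.63 ± 0.14). Gmppa, a regulatory subunit of GDP-mannose synthesis, gave signals of 144, 14.7 and 119, a log2 ratio of 3.54 ± 0.15. Alg8 (2.26 ± 0.17), Alg3 (1.74 ± 0.13), Alg14 (1.73 ± 0.14), Alg5 (1.46 ± 0.13) and Alg2 (1.28 ± 0.2) were higher, Alg1 (0.15 ± 0.13), Alg9 (0.43 ± 0.14) and Alg11 (-0.76 ± 0.72) lay between the thresholds, and Alg12 was lower. Gfpt1, the first enzyme of the hexosamine pathway that makes the sugar donor, was higher (23.6, 6.8 and 29.2, log2 ratio 2.04 ± 0.21).

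**Figure D3:**
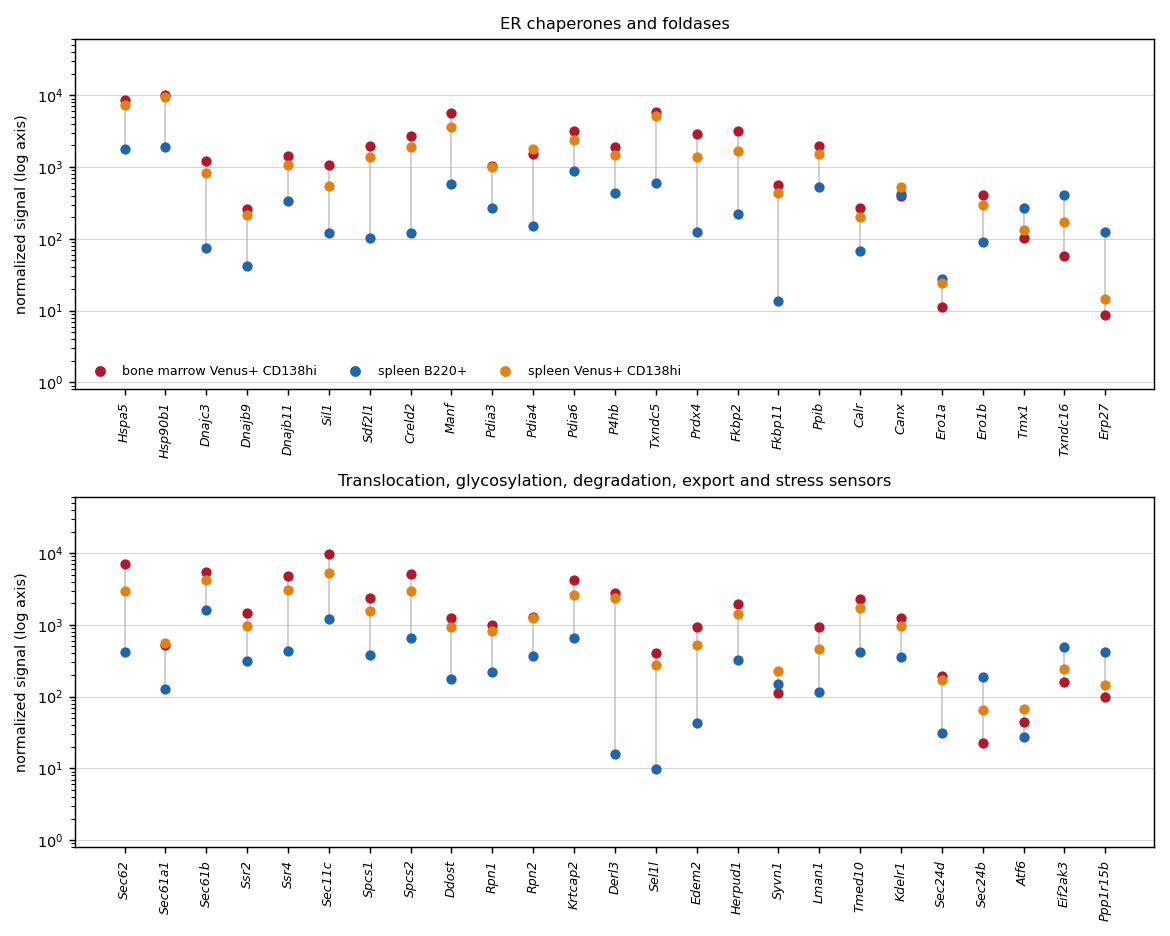
Normalized signal (log axis) of genes of ER folding (upper panel) and of translocation, glycosylation, degradation, export and stress sensing (lower panel) on the 3 arrays. Red points are bone marrow Venus+, blue points spleen B220+ and orange points spleen Venus+ cells; the blue point is the lowest for most genes, and Erp27, Txndc16, Sec24b, Eif2ak3 and Ppp1r15b are among those where it is the highest.

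Misfolded chains are pulled back to the cytosol by ER-associated degradation (ERAD). Of 32 members measured on both arrays, 16 (50%) were higher and 3 (9.38%) lower, with a median log2 ratio of 0.96 (0.09 with the normexp correction), while 1 was detected in the B220+ cells alone. Sel1l, the scaffold of the Hrd1 ubiquitin ligase, read 406, 9.9 and 276 (log2 ratio 5.60 ± 0.16). Syvn1, the ligase Hrd1 itself, gave signals of 114, 152 and 227, a log2 ratio of -0.17 ± 0.13. Scaffold and ligase thus differed in ratio, and the Syvn1 window holds the ER stress response element. Signals of Edem2, a mannose trimmer that marks chains for disposal, were 937, 42.3 and 533, for a log2 ratio of 4.71 ± 0.13. Ube2j1, the membrane-bound ubiquitin-conjugating enzyme, read 622, 52.9 and 376 (log2 ratio 3.80 ± 0.13). Herpud1, a Hrd1 partner, gave signals of 1935, 324 and 1428, a log2 ratio of 2.82 ± 0.13. Derlins stood at 7.71 ± 0.15 for Derl3, 2.02 ± 0.13 for Derl1 and 1.24 ± 0.13 for Derl2, and the extracting ATPase Vcp at 1.68 ± 0.13. Rnf139 (-1.68 ± 0.14), Erlin1 (-2.29 ± 0.16) and Tmub1 (-2.43 ± 0.44), which are known for the disposal of sterol-regulated proteins, were the 3 lower members.

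The sensors of the unfolded protein response did not all share the direction of the folding genes. Of 26 members measured on both arrays, 9 (34.6%) were higher and 5 (19.2%) lower, with a median log2 ratio of 0.42, while 2 were detected in the marrow cells alone and 2 in the B220+ cells alone. Atf6, the Golgi-cleaved sensor, read 44.4, 27.2 and 67.3 (log2 ratio 0.95 ± 0.14). Eif2ak3, the sensor kinase PERK, gave signals of 160.3, 495 and 241, a log2 ratio of -1.38 ± 0.13. Ern1, which encodes IRE1, was detected on neither array. Signals of Atf6b, the paralog of Atf6, were 49.7, 14.3 and 58, for a log2 ratio of 2.04 ± 0.15. Creb3l2, a related ER-tethered factor, read 45.6, 2.2 and 23.2 (log2 ratio 4.62 ± 0.46). Mbtps1, the protease S1P that cleaves them, gave signals of 79.8, 208 and 117, a log2 ratio of -1.14 ± 0.13. PERK acts through Atf4, Ddit3 and the eIF2 phosphatase, and these were not of 1 direction. Signals of Atf4 were 708, 842 and 948, for a log2 ratio of -0.01 ± 0.13. Ddit3, the stress factor CHOP, read 329, 364 and 266 (log2 ratio 0.10 ± 0.13). Ppp1r15a, the inducible phosphatase subunit GADD34, gave signals of 88.1, 20.3 and 191, a log2 ratio of 2.36 ± 0.14. Signals of Ppp1r15b, its constitutive counterpart, were 97.4, 416 and 148, for a log2 ratio of -1.85 ± 0.13. Atf5 (107, 3.4 and 85.6, log2 ratio 5.22 ± 0.31), Trib3 (1.19 ± 0.21) and Cebpb (1.72 ± 0.13) were higher, and Chac1, a glutathione-degrading enzyme downstream of Atf4, was detected in both plasma cell samples alone (131, not detected and 123, at least 119-fold higher). Of the other eIF2 kinases, 2 were lower, Eif2ak4 at -2.24 ± 0.15 and Eif2ak2 at -1.19 ± 0.57.

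Export from the ER runs through COPII vesicles, return through COPI. The 66 members measured on both arrays had a median log2 ratio of 0.75 (0.06 with the normexp correction), and 25 (37.9%) of them were higher and 5 (7.58%) lower, while 1 was detected in the marrow cells alone and 1 in the B220+ cells alone. Cargo receptors were among the highest members. Lman1, the lectin ERGIC-53, gave signals of 938, 115 and 468, a log2 ratio of 3.27 ± 0.13, with normexp -0.38. Signals of Tmed10, a p24 cargo receptor, were 2289, 419.6 and 1695, for a log2 ratio of 2.69 ± 0.13, with normexp -0.09. Ergic3 read 482, 69.6 and 378 (log2 ratio 3.03 ± 0.13). Kdelr1, the receptor that returns KDEL proteins, gave signals of 1264, 354 and 961, a log2 ratio of 2.08 ± 0.13. Kdelr3 was detected in the plasma cell samples alone (21.3, not detected and 13.2, at least 19.4-fold higher). The COPII coat differed by subunit: the 4 cargo adaptors ranged from Sec24d, which was higher, to Sec24b, which was lower, with Sec24a at 0.35 ± 0.17 and Sec24c at -0.27 ± 0.13. Signals of Sec24d were 192, 31.4 and 169.9, for a log2 ratio of 2.86 ± 0.14. Sec24b read 22.8, 189.6 and 64.2 (log2 ratio -2.81 ± 0.15). The coat units shared by all COPII vesicles lay near the threshold or inside it, Sec23a at 0.91 ± 0.14, Sec23b at 0.75 ± 0.13, Sec13 at 0.56 ± 0.13 and Sec31a at 1.05 ± 0.13, and the GTPases Sar1a and Sar1b at 0.64 ± 0.13 and 0.76 ± 0.13. In COPI, Copz2 and Cope were higher (4.43 ± 0.19 and 2.13 ± 0.13), Copa, Copb1, Copb2, Copg1 and Arcn1 lay between the thresholds (0.88 ± 0.13, -0.39 ± 0.13, 0.33 ± 0.13, -0.47 ± 0.16 and 0.22 ± 0.13), and Copg2 was lower (-1.46 ± 0.59).

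Later steps of membrane traffic did not follow the ER. There were 11 higher (14.5%) and 19 lower (25%) genes among the 76 measured on both arrays, and the median log2 ratio was -0.46, while 3 were detected in the B220+ cells alone. Signals of Rab6a, the Rab of Golgi traffic, were 991, 273 and 576, for a log2 ratio of 2.11 ± 0.13. Rab2a, a Rab of ER to Golgi transport, read 742, 356 and 454 (log2 ratio 1.30 ± 0.13). Rab3d, a Rab of regulated secretion, gave signals of 62.7, 16.9 and 58.2, a log2 ratio of 2.14 ± 0.15. Golgi Rabs were thus among the higher members, while endosomal sorting genes were among the lower. Signals of Snx2, a sorting nexin of the retromer, were 165, 2989 and 544, for a log2 ratio of -3.94 ± 0.13. Snx5, another retromer sorting nexin, read 409.8, 2739 and 1313 (log2 ratio -2.50 ± 0.13). The retromer core gave Vps35 at -1.67 ± 0.13, Vps26a at -2.11 ± 0.14 and Vps29 at -0.85 ± 0.13. Napg, an adaptor of SNARE recycling, gave signals of 12.4, 101 and 41.8, a log2 ratio of -2.78 ± 0.19. Signals of Vamp4, a SNARE of the Golgi, were 10.3, 71.6 and 23.6, for a log2 ratio of -2.55 ± 0.21. The related adaptor Napb, in contrast, was higher (55.3, 5.6 and 32, log2 ratio 3.55 ± 0.22).

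Golgi glycosyltransferases spread widely. Of 47 members measured on both arrays, 17 (36.2%) were higher and 10 (21.3%) lower, with a median log2 ratio of 0.33, while 4 were detected in the marrow cells alone and 2 in the B220+ cells alone. Chst1, a sulfotransferase of galactose residues, gave signals of 2490.3, 3.5 and 1087, a log2 ratio of 9.72 ± 0.31. Signals of Fut8, the core fucosyltransferase of N-glycans, immunoglobulin included, were 383, 21.7 and 251, for a log2 ratio of 4.39 ± 0.14. Fut1, a fucosyltransferase of blood group H antigen, was not detected in the B220+ cells and read 86.7 in the marrow and 52.8 in the spleen Venus+ cells, at least 79-fold higher. These 3 were far brighter in both plasma cell samples than in the B220+ cells. The trimming enzymes Man1a2 (2.17 ± 0.13), Man1b1 (2.15 ± 0.18) and Man2a1 (2.09 ± 0.14) and the branching enzymes Mgat1 (1.46 ± 0.13) and Mgat2 (1.11 ± 0.13) were higher. The enzymes that finish an N-glycan with galactose and sialic acid, B4galt1 (-0.20 ± 0.13) and St6gal1 (1209, 1337 and 1461, log2 ratio 0.10 ± 0.13), stayed near the median. Of the enzymes of O-glycans, 3 are given for their roles. Galnt1, an initiator of O-glycans, gave signals of 69.8, 488 and 125, a log2 ratio of -2.56 ± 0.13. Signals of C1galt1, the core 1 synthase, were 22.5, 67.7 and 41.1, for a log2 ratio of -1.35 ± 0.15. Gcnt1, the core 2 branching enzyme, was not detected in the marrow cells and read 109 in the B220+ cells and was also not detected in the spleen Venus+ cells, at least 38.2-fold lower. St8sia4, a polysialyltransferase, gave signals of 166, 1078 and 218, a log2 ratio of -2.46 ± 0.13. Signals of Chst15, a chondroitin sulfotransferase, were 30.4, 191 and 56.3, for a log2 ratio of -2.41 ± 0.14.

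Amino acid synthesis showed a few large differences within a list near the background. The 28 members measured on both arrays had a median log2 ratio of 0.12, and 8 (28.6%) of them were higher and 8 (28.6%) lower, while 2 were detected in the marrow cells alone and 3 in the B220+ cells alone. Pycr1, the mitochondrial enzyme of the last step of proline synthesis, gave signals of 998, 4.8 and 522, a log2 ratio of 7.94 ± 0.24. Signals of Aldh18a1, the first enzyme of that pathway, were 54.2, 15 and 76.7, for a log2 ratio of 2.10 ± 0.15. Asns, asparagine synthetase, read 241, 2.8 and 176 (log2 ratio 6.67 ± 0.37). Serine synthesis, by contrast, lay at the median, with Psat1 at 0.23 ± 0.13 and Psph at 0.29 ± 0.13. Purine synthesis was mixed, with Atic at -0.04 ± 0.15, Pfas at 0.89 ± 0.18, Paics at -1.25 ± 0.13, Gart at -1.25 ± 0.13 and Ppat at -1.14 ± 0.14, and the methionine adenosyltransferase Mat2a stood at -1.35 ± 0.13.

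Among transporters and mTOR genes, there were 9 higher (25.7%) and 5 lower (14.3%) genes among the 35 measured on both arrays, and the median log2 ratio was 0.13, while 2 were detected in the marrow cells alone and 6 in the B220+ cells alone. Signals of Slc3a2, the heavy chain CD98 shared by several transporters, were 4211, 162 and 2915, for a log2 ratio of 4.94 ± 0.13. Slc7a5, its light chain LAT1, read 130.1, 45.7 and 143 (log2 ratio 1.75 ± 0.13). Slc7a7, its light chain for cationic amino acids, gave signals of 206, 20.4 and 335, a log2 ratio of 3.58 ± 0.14. All 3 chains were higher. The glutamine carriers Slc1a5 and Slc38a1 stood at -0.84 ± 0.13 and -1.84 ± 0.14, and Slc38a2 at 1.34 ± 0.14, with normexp -0.04. The kinase Mtor was at -0.75 ± 0.13 and its partner Rptor at -0.84 ± 0.15. Signals of Sesn1, a sestrin, which restrains mTORC1, were 36.1, 294 and 96.4, for a log2 ratio of -2.78 ± 0.14, with normexp 0.13 and with local background 0.98. Sesn3, a related sestrin, was not detected in the marrow cells and read 54.6 in the B220+ cells and 21.2 in the spleen Venus+ cells, at least 19.2-fold lower. Flcn, folliculin, which acts at the lysosome, gave signals of 65.8, 305 and 226, a log2 ratio of -1.97 ± 0.14.

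Translation and protein breakdown held few calls. The proteasome list had the lowest share of called genes of all lists. Of 42 members measured on both arrays, 0 (0%) were higher and 1 (2.38%) lower, with a median log2 ratio of 0.08. Without centring on the median gene its median was -0.16. The lowest was Psmd14 (-1.04 ± 0.13) and the highest Adrm1 (0.97 ± 0.13), and the immunoproteasome subunits Psmb8, Psmb9 and Psmb10 stood at 0.49 ± 0.13, 0.69 ± 0.13 and 0.45 ± 0.13. For cytosolic ribosomal proteins, the 54 members measured on both arrays had a median log2 ratio of -0.18, and 2 (3.7%) of them were higher and 4 (7.41%) lower, while 2 were detected in the B220+ cells alone. Rpl41 gave signals of 33212, 19467 and 27435, a log2 ratio of 1.01 ± 0.13, with normexp -0.14. Signals of Rps25 were 20.6, 187 and 66.1, for a log2 ratio of -2.94 ± 0.16, with normexp 0.06 and with local background 0.81. These were 1 of the higher members and the lowest. Initiation and elongation factors were similar. There were 5 higher (10.6%) and 5 lower (10.6%) genes among the 47 measured on both arrays, and the median log2 ratio was -0.12, while 1 was detected in the B220+ cells alone. Eef1a1, the main elongation factor, gave signals of 18335, 27636 and 23291, a log2 ratio of -0.35 ± 0.13. Signals of Eef1a2, its tissue-restricted paralog, were 298, 9.7 and 131, for a log2 ratio of 5.19 ± 0.17. The abundant form thus lay inside the threshold and the paralog far outside it. Among aminoacyl-tRNA synthetases, of 18 members measured on both arrays, 3 (16.7%) were higher and 0 (0%) lower, with a median log2 ratio of 0.03, while 1 was detected in the B220+ cells alone. Nars (1.78 ± 0.13), Yars (1.38 ± 0.13) and Cars (1.25 ± 0.13) were the higher ones, while Farsb, a subunit of the phenylalanine enzyme, was not detected in the marrow cells (not detected, 105 and 19.5, at least 36.8-fold lower) and its partner Farsa was at -0.10 ± 0.13.

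Autophagy and lysosome genes lay on both sides. The 62 members measured on both arrays had a median log2 ratio of 0.11, and 13 (21%) of them were higher and 11 (17.7%) lower, while 1 was detected in the marrow cells alone and 2 in the B220+ cells alone. Signals of Ctsb, the protease cathepsin B, were 1305, 182 and 853, for a log2 ratio of 3.08 ± 0.13. Ctsd, cathepsin D, read 562, 141 and 409 (log2 ratio 2.24 ± 0.13). Ctsh, cathepsin H, gave signals of 202, 1337 and 697, a log2 ratio of -2.48 ± 0.13. Signals of Ctsc, cathepsin C, were 82.2, 397 and 197, for a log2 ratio of -2.03 ± 0.13. Cathepsins B and D were thus higher, as was cathepsin S (Ctss, 1.44 ± 0.13), and H and C lower. Atg9a, the membrane protein of the autophagosome seed, read 113, 1.7 and 41.5 (log2 ratio 6.30 ± 0.58). No signal of Wipi1, a phosphoinositide-binding autophagy protein, was detected in the B220+ cells, against 52.7 in the marrow and 48.6 in the spleen Venus+ cells, at least 48-fold higher. Signals of Sqstm1, the autophagy receptor p62, were 440.3, 203 and 594, for a log2 ratio of 1.36 ± 0.13. Becn1 (-0.58 ± 0.13), Atg5 (0.77 ± 0.13) and Atg7 (0.09 ± 0.15) lay between the thresholds, Atg14 and Pik3c3, which form a complex with Becn1, were lower (-1.74 ± 0.15 and -1.83 ± 0.14), and Ulk1 and Ulk2 stood on opposite sides (1.06 ± 0.13 and -2.71 ± 0.21, with normexp 0.02 and with local background 0.02).

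The energy pathways showed no common direction. In glycolysis, there were 6 higher (18.2%) and 8 lower (24.2%) genes among the 33 measured on both arrays, and the median log2 ratio was -0.22, while 1 was detected in the marrow cells alone and 2 in the B220+ cells alone. Slc2a1, the glucose carrier GLUT1, gave signals of 16.5, 57.2 and 38.5, a log2 ratio of -1.55 ± 0.17. Slc2a3, the carrier GLUT3, was not detected in the marrow cells and read 97.3 in the B220+ cells and 11.3 in the spleen Venus+ cells, at least 34.2-fold lower. Ldha, lactate dehydrogenase A, read 196, 647 and 452 (log2 ratio -1.48 ± 0.13). Pdk2, a kinase that turns off pyruvate dehydrogenase, gave signals of 59.6, 2.6 and 36.1, a log2 ratio of 4.76 ± 0.4, with normexp -0.04. Slc2a1, Slc2a3 and Ldha were lower, and Hif1a, a known regulator of these genes, stood at -2.58 ± 0.16 (17.5, 124 and 45.1), while Hk2 was higher (1.38 ± 0.14) and Aldoa, Pgk1 and Pkm were near the median (0.13 ± 0.13, -0.22 ± 0.13 and -0.07 ± 0.14). In the citric acid cycle, of 24 members measured on both arrays, 3 (12.5%) were higher and 8 (33.3%) lower, with a median log2 ratio of -0.48, while 1 was detected in the marrow cells alone. Idh2, the mitochondrial NADP-dependent isocitrate dehydrogenase, read 418, 101 and 246 (log2 ratio 2.30 ± 0.13). Fh1, fumarase, gave signals of 72.6, 332 and 92.4, a log2 ratio of -1.95 ± 0.13. Signals of Sucla2, a succinyl-CoA ligase subunit, were 7.8, 55.2 and 14.7, for a log2 ratio of -2.58 ± 0.26. For the respiratory chain, the 71 members measured on both arrays had a median log2 ratio of 0.24, and 10 (14.1%) of them were higher and 1 (1.41%) lower, while 3 were detected in the B220+ cells alone. Without centring its median was -0.00. Ndufa1, a complex I subunit, gave signals of 2797, 670 and 1359, a log2 ratio of 2.31 ± 0.13. Signals of Ndufs1, the only lower member, a core subunit of complex I, were 55.5, 150.2 and 85.1, for a log2 ratio of -1.19 ± 0.14, with normexp 0.26. The mitochondrial ribosome list had 6 higher and 16 lower of 85 (-0.17), and pentose phosphate, hexosamine and glycogen genes 4 higher and 5 lower of 20 (0.26). Ugdh, the enzyme that makes UDP-glucuronate, read 7.7, 127 and 54.3 (log2 ratio -3.80 ± 0.26).

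Genes of lipid synthesis were called in both directions. There were 14 higher (26.9%) and 13 lower (25%) genes among the 52 measured on both arrays, and the median log2 ratio was -0.21, while 1 was detected in the marrow cells alone and 4 in the B220+ cells alone. Signals of Scd1, a stearoyl-CoA desaturase, were 30.6, 2552 and 309, for a log2 ratio of -6.14 ± 0.14. Scd2, its paralog, read 204, 283 and 248 (log2 ratio -0.23 ± 0.13). Sgms1, sphingomyelin synthase, gave signals of 3.9, 197 and 24.4, a log2 ratio of -5.41 ± 0.45, with normexp 0.33. Scd1 was lower by a factor of 70.4 while Scd2 lay near the median. Phosphatidylcholine synthesis, which builds ER membrane, was higher at its rate-setting step. Signals of Pcyt1a, the enzyme of that step, were 259, 28.9 and 150.3, for a log2 ratio of 3.41 ± 0.14. Chka, choline kinase, read 82, 23.7 and 64.3 (log2 ratio 2.03 ± 0.14). Chpt1, a cholinephosphotransferase, gave signals of 30.5, 14.6 and 20.3, a log2 ratio of 1.31 ± 0.16. Signals of Cept1, its ER counterpart, were 48.9, 246 and 103, for a log2 ratio of -2.09 ± 0.14. Ceramide synthases stood at 3.32 ± 0.15 for Cers6, 1.09 ± 0.13 for Cers2 and -0.69 ± 0.13 for Cers5. Among sterol genes, of 26 members measured on both arrays, 6 (23.1%) were higher and 5 (19.2%) lower, with a median log2 ratio of -0.35. The regulators Srebf2 (-1.83 ± 0.24) and Abca1 (-2.17 ± 0.21) were lower, and the enzymes Tm7sf2 (2.88 ± 0.21), Lss (506, 198 and 458, log2 ratio 1.60 ± 0.13) and Ebp (1.36 ± 0.13) higher.

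Genes of largest ratio, among those with both signals at least 3 times the lowest detected signal of their array, were led by Ighm. Ighm, the mu heavy chain, gave signals of 8236, 11 and 2433, a log2 ratio of 9.79 ± 0.16. Signals of Pla1a, a phospholipase A1 of phosphatidylserine, were 3001, 7.3 and 1633, for a log2 ratio of 8.93 ± 0.19. Rgcc, a regulator of the cell cycle, read 1009, 4.3 and 827 (log2 ratio 8.12 ± 0.26). Mt1, the metal-binding protein metallothionein 1, gave signals of 1481, 6.4 and 366, a log2 ratio of 8.10 ± 0.2, with normexp -0.28. Signals of Tsku, a secreted leucine-rich proteoglycan, were 2424, 10.5 and 922, for a log2 ratio of 8.09 ± 0.16. Which part of the Ighm transcript the probe reads was not tested. Tmem176b, a membrane protein of endosomes, read 2658, 13.4 and 992 (log2 ratio 7.88 ± 0.15). Some bright probes carry names that are not among the known genes of plasma cells. Ccnk, cyclin K, a partner of transcription kinases, gave signals of 12345, 46 and 6125, a log2 ratio of 8.31 ± 0.13. Signals of Vmn1r180, a vomeronasal receptor, were 1934, 9 and 837, for a log2 ratio of 7.99 ± 0.17. Chrnb2, a nicotinic receptor subunit, read 1399, 6.6 and 441 (log2 ratio 7.97 ± 0.2). Cdk12 and Cdk13, the kinases that bind cyclin K, stood at -2.88 ± 0.56 and -0.24 ± 0.14. Whether the Ccnk, Vmn1r180 and Chrnb2 probes read their named genes was not tested.

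Of the genes detected in the marrow cells alone, the largest bounds were led by Tnfrsf17. Tnfrsf17, the survival receptor BCMA, was not detected in the B220+ cells and read 2936 in the marrow and 1435 in the spleen Venus+ cells, at least 2675-fold higher. No signal of Shh, the morphogen sonic hedgehog, was detected in the B220+ cells, against 687 in the marrow and 91.1 in the spleen Venus+ cells, at least 626-fold higher. Tfpi2, a protease inhibitor, was not detected in the B220+ cells and read 594 in the marrow and 322 in the spleen Venus+ cells, at least 541-fold higher. Oosp2 (272, not detected and 156, at least 247-fold higher) and Zdhhc22 (199, not detected and 94.7, at least 182-fold higher) followed. All 5 were detected in the spleen Venus+ cells too, each at a lower signal than in the marrow cells.

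Of the transcription factors of the B cell, most were lower. Of 27 members measured on both arrays, 2 (7.41%) were higher and 17 (63%) lower, with a median log2 ratio of -1.68 (-0.56 with the normexp correction and -0.99 with dim genes left out), while 4 were detected in the B220+ cells alone. Signals of Bcl11a, a factor of early B cell development, were 2.8, 819 and 73.5, for a log2 ratio of -7.95 ± 0.62. Foxp1, a forkhead factor of B cells, read 6.7, 324 and 55.2 (log2 ratio -5.35 ± 0.29). Irf8, an interferon regulatory factor of B cells, gave signals of 50.2, 849 and 127, a log2 ratio of -3.84 ± 0.14. Signals of Runx1, a factor of blood cell development, were 3.7, 65.7 and 9.9, for a log2 ratio of -3.91 ± 0.48. Ikzf3, the factor Aiolos, read 99.1, 25 and 80.7 (log2 ratio 2.23 ± 0.14). Aiolos and Etv6 (1.46 ± 0.24) were the 2 higher members. Ebf1 and Pou2f2 stayed inside the threshold, at -0.73 ± 0.13 and -0.73 ± 0.16. Among wider families of lymphoid factors, the 60 members measured on both arrays had a median log2 ratio of -0.37, and 14 (23.3%) of them were higher and 24 (40%) lower, while 1 was detected in the marrow cells alone and 8 in the B220+ cells alone. Signals of Satb1, a chromatin organizer, were 46.6, 596 and 49.4, for a log2 ratio of -3.43 ± 0.14. Fli1, an Ets factor, read 27.2, 443 and 95.1 (log2 ratio -3.78 ± 0.15). Klf13, a Krüppel-like factor, gave signals of 230, 1855 and 437, a log2 ratio of -2.77 ± 0.13. Signals of Ikzf2, the Ikaros relative Helios, were 39.3, 2.7 and 17, for a log2 ratio of 4.11 ± 0.38. Gata2, a factor of progenitors and mast cells, was not detected in the B220+ cells and read 43.2 in the marrow and 19.1 in the spleen Venus+ cells, at least 39.3-fold higher. The Ikaros family thus split, with Ikzf2 and Ikzf3 higher, Ikzf1 at -0.85 ± 0.13 and Ikzf5 at -1.53 ± 0.15.

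Antigen receptor signalling had the lowest median of the gene lists. There was 1 higher (3.23%) and 24 lower (77.4%) genes among the 31 measured on both arrays, and the median log2 ratio was -1.88, while 1 was detected in the B220+ cells alone. Signals of Prkcb, the kinase PKC beta, were 14.1, 554 and 142, for a log2 ratio of -5.05 ± 0.18. Bank1, a scaffold of the receptor, read 36.6, 1047 and 103 (log2 ratio -4.59 ± 0.14). Siglecg, an inhibitory lectin, gave signals of 15.1, 429 and 129, a log2 ratio of -4.58 ± 0.17. Signals of Cd81, a tetraspanin, were 1888, 893 and 1491, for a log2 ratio of 1.32 ± 0.13. Cd81 was the 1 higher member. The receptor chains Cd79a and Cd79b stood at -1.88 ± 0.13 and -1.88 ± 0.13, while the kinase Syk stayed inside the threshold at -0.62 ± 0.14. Class-switch and repair genes gave 13 lower and 2 higher of 28. Atm, the kinase of DNA breaks, read 9, 94.1 and 54.2 (log2 ratio -3.14 ± 0.23). Samhd1, a nucleotide hydrolase, gave signals of 169, 1163 and 409.7, a log2 ratio of -2.54 ± 0.13. Signals of Polh, a translesion polymerase, were 31.9, 13.2 and 19.7, for a log2 ratio of 1.52 ± 0.16.

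Homing receptors included some of the largest differences. Of 22 members measured on both arrays, 7 (31.8%) were higher and 10 (45.5%) lower, with a median log2 ratio of -0.86 (-0.01 with the normexp correction and -0.05 with local background subtraction), while 2 were detected in the marrow cells alone and 4 in the B220+ cells alone. Plasma cells are known to lose the receptors of the B cell follicle as they leave it. Cxcr5, the receptor of follicle homing, gave signals of 7.8, 829.5 and 445, a log2 ratio of -6.49 ± 0.25. Signals of Ccr6, a chemokine receptor of naive B cells, were 4.5, 901 and 9.3, for a log2 ratio of -7.40 ± 0.4, with normexp 0.49. Ccr7, the receptor of T zone homing, was not detected in the marrow cells and read 303 in the B220+ cells and 65.3 in the spleen Venus+ cells, at least 107-fold lower. Gpr183, the oxysterol receptor EBI2, gave signals of 23.1, 557 and 35.6, a log2 ratio of -4.35 ± 0.15. All 4 were brighter in B220+ cells than in either plasma cell sample, and Cxcr5 was the 1 still bright in spleen Venus+ cells. Sphingosine-1-phosphate receptors guide exit from lymphoid organs. S1pr1, the receptor of exit into the blood, was not detected in the marrow cells and read 875 in the B220+ cells and 194 in the spleen Venus+ cells, at least 308-fold lower. S1pr4, a related receptor, read 12.5, 225 and 64.2 (log2 ratio -3.92 ± 0.19). S1pr2, a receptor that opposes migration, gave signals of 38.3, 21.8 and 23.2, a log2 ratio of 1.06 ± 0.15. The 3 sphingosine receptors thus did not go the same way. Signals of Cxcr4, the receptor for the marrow chemokine CXCL12, were 131, 235 and 113, for a log2 ratio of -0.60 ± 0.13. This receptor, known for marrow homing, was not called in either direction.

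The 4 receptors described next were higher. Ccr10, a receptor of IgA plasma cells, was not detected in the B220+ cells and read 106 in the marrow and 16.8 in the spleen Venus+ cells, at least 96.4-fold higher. Ccr9, the gut homing receptor, gave signals of 20.3, 4.2 and 40.7, a log2 ratio of 2.52 ± 0.28. Signals of Cxcr3, the receptor for interferon-induced chemokines, were 10.1, 1.4 and 15.1, for a log2 ratio of 3.09 ± 0.72. Ackr3, a scavenger of CXCL12, read 32.6, 10.3 and 122 (log2 ratio 1.91 ± 0.17). Ccr10 was brightest in the marrow cells and Ackr3 in the spleen Venus+ cells. The adhesion molecules were mixed: the LFA-1 chain Itgb2 stood at 1.0 ± 0.13 and its partner Itgal at 3.28 ± 0.15, with local background -0.02. The VLA-4 chains Itga4 (-0.76 ± 0.28) and Itgb1 (0.09 ± 0.14) stayed inside the threshold. Itgb7, the partner of Itga4 in gut homing, gave signals of 31.1, 174 and 104, a log2 ratio of -2.24 ± 0.14. Signals of Selplg, the P-selectin ligand, were 319, 59.5 and 277, for a log2 ratio of 2.66 ± 0.13.

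Cytokine receptors held more lower than higher members. The 36 members measured on both arrays had a median log2 ratio of -0.87, and 5 (13.9%) of them were higher and 17 (47.2%) lower, while 2 were detected in the marrow cells alone and 7 in the B220+ cells alone. The IL-10 receptor chains split: the ligand-binding chain was far lower and the shared chain was not. Il10ra gave signals of 11.1, 452 and 46.4, a log2 ratio of -5.10 ± 0.2. Signals of Il10rb were 299.6, 329.7 and 364, for a log2 ratio of 0.11 ± 0.13. Il4ra, the IL-4 and IL-13 receptor chain, read 27, 411 and 85.5 (log2 ratio -3.68 ± 0.15). Il13ra1, its partner for IL-13, was not detected in the B220+ cells and read 91.5 in the marrow and 41.4 in the spleen Venus+ cells, at least 83.3-fold higher. Il21r, the receptor of the follicular helper cytokine IL-21, was not detected in the marrow cells and read 177 in the B220+ cells and 15.6 in the spleen Venus+ cells, at least 62.4-fold lower. Il6st, gp130, the IL-6 signal chain, read 88.4, 31.9 and 145 (log2 ratio 1.71 ± 0.14). Il6ra, the IL-6 binding chain, was not detected in the marrow cells and read 7.6 in the B220+ cells and 4.6 in the spleen Venus+ cells, at least 2.67-fold lower. Of the kinases, Jak1 and Jak2 were lower (-3.67 ± 0.13 and -2.20 ± 0.14), Jak3 and Tyk2 inside the threshold (-0.20 ± 0.14 and 0.83 ± 0.13), and Stat3 stood at -0.74 ± 0.13, Stat6 at -1.79 ± 0.2 and Stat4 at -2.91 ± 0.14. Signals of Socs2, an inhibitor of cytokine signalling, were 105, 9.9 and 90.2, for a log2 ratio of 3.66 ± 0.17. Tgfbr2, the TGF-beta receptor, read 61.9, 656 and 263 (log2 ratio -3.16 ± 0.14).

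The TNF family lay near the background. There were 8 higher (28.6%) and 5 lower (17.9%) genes among the 28 measured on both arrays, and the median log2 ratio was -0.04, while 4 were detected in the marrow cells alone and 2 in the B220+ cells alone. The receptors for BAFF and APRIL, which sustain B and plasma cells, differed. Tnfrsf17 was detected in the plasma cell samples alone, as given above. Signals of Tnfrsf13b, the receptor TACI, were 361, 599 and 455, for a log2 ratio of -0.49 ± 0.13. Tnfrsf10b, a death receptor for TRAIL, read 41.5, 1.6 and 4.7 (log2 ratio 4.94 ± 0.62). Tnfsf13, the ligand APRIL, gave signals of 7.9, 2.5 and 4.5, a log2 ratio of 1.90 ± 0.46. Signals of Ltb, lymphotoxin beta, were 319.8, 2477 and 816, for a log2 ratio of -2.71 ± 0.13. Tnfrsf1b, the second TNF receptor, read 197, 38.9 and 140 (log2 ratio 2.59 ± 0.14). Tnf itself was not detected in the marrow cells (not detected, 16.7 and 2.4, at least 5.88-fold lower).

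**Figure D4:**
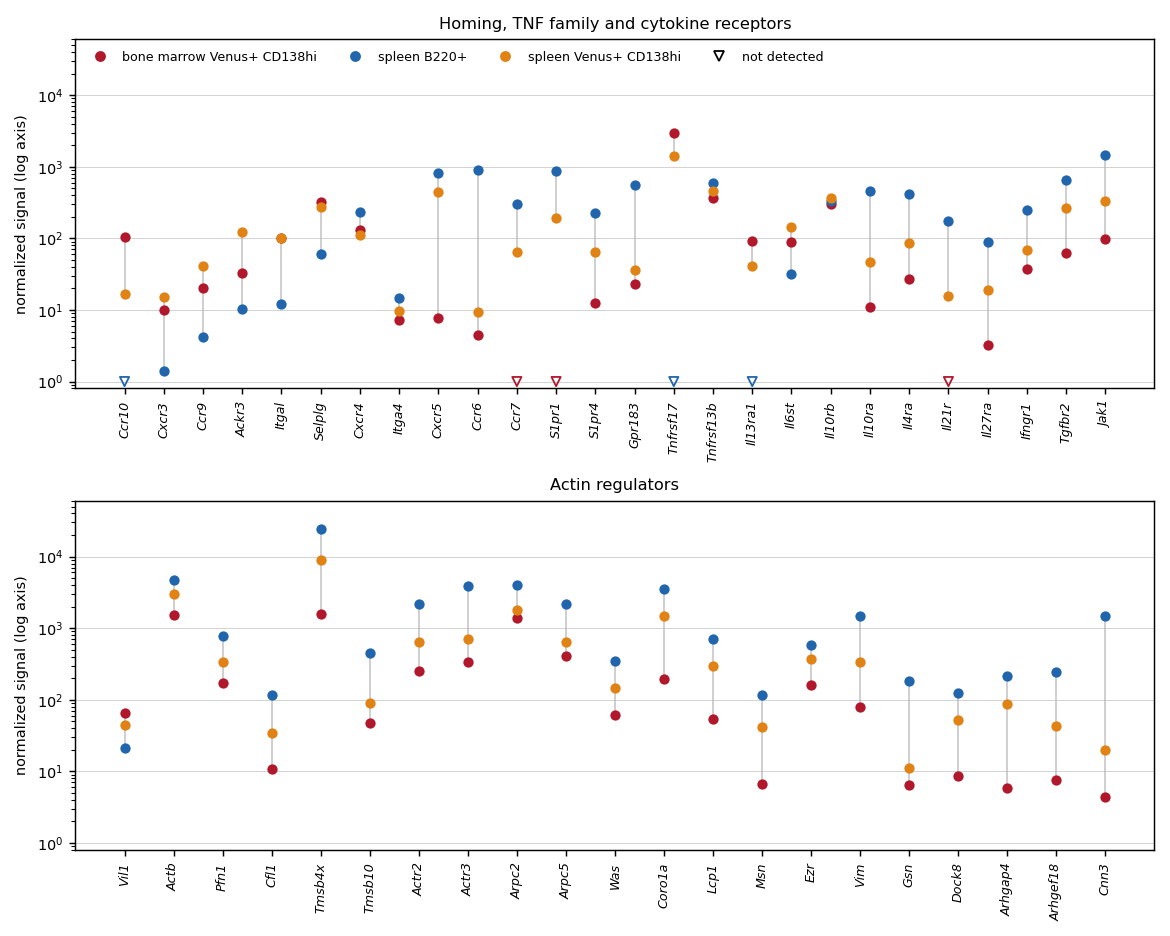
Normalized signal (log axis) of homing, TNF family and cytokine receptors (upper panel) and of actin regulators (lower panel) on the 3 arrays. Red points are bone marrow Venus+, blue points spleen B220+ and orange points spleen Venus+ cells, and open triangles mark genes not detected; for most actin regulators the blue point is the highest and the red the lowest, with Vil1 the other way round.

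Several cytokines other than Il10 were higher in the marrow plasma cells. Of 30 members measured on both arrays, 12 (40%) were higher and 5 (16.7%) lower, with a median log2 ratio of 0.67 (0.04 with the normexp correction), while 2 were detected in the marrow cells alone and 6 in the B220+ cells alone. Signals of Il23a, the p19 chain of IL-23, were 155, 3.5 and 50.2, for a log2 ratio of 5.71 ± 0.31. Ebi3, the chain shared by IL-27 and IL-35, read 596, 54.8 and 433 (log2 ratio 3.69 ± 0.13). Il12a, the p35 chain of IL-12 and IL-35, gave signals of 3.4, 115 and 9, a log2 ratio of -4.83 ± 0.52. Signals of Il12b, the p40 chain of IL-12 and IL-23, were 153, 299.6 and 107, for a log2 ratio of -0.73 ± 0.13. The p19 and Ebi3 chains were higher, the p35 chain was far lower and the p40 chain stayed inside the threshold. Il13, a type 2 cytokine, read 1015, 34.3 and 1094 (log2 ratio 5.13 ± 0.14). Il15, a cytokine of T and NK cell survival, gave signals of 60.8, 13.6 and 47.2, a log2 ratio of 2.40 ± 0.15. Signals of Tgfb1, the main TGF-beta of lymphocytes, were 10.8, 53 and 17.9, for a log2 ratio of -2.05 ± 0.21. Tgfb2, another isoform, read 47.7, 10 and 33.3 (log2 ratio 2.50 ± 0.17). The TGF-beta genes stood on opposite sides. No signal of Cxcl13, the chemokine of B cell follicles, was detected in the B220+ cells, against 36.6 in the marrow and 14.1 in the spleen Venus+ cells, at least 33.3-fold higher. Il2, Il4, Il6, Il9 and Il21 were detected on neither compared array.

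Inhibitory and co-stimulatory receptors held a larger share of higher genes than the background, and a share of lower genes near it. The 32 members measured on both arrays had a median log2 ratio of 0.50, and 14 (43.8%) of them were higher and 10 (31.2%) lower, while 5 were detected in the B220+ cells alone. Cd28, the co-stimulatory receptor that plasma cells share with T cells, read 477, 5.5 and 528 (log2 ratio 6.68 ± 0.22). Ctla4, its inhibitory relative, gave signals of 25.3, 2 and 83.1, a log2 ratio of 3.90 ± 0.51. Signals of Entpd1, the ectonucleotidase CD39, were 71.9, 7.1 and 77.2, for a log2 ratio of 3.58 ± 0.19. Vsir, the checkpoint VISTA, read 93.5, 14.7 and 86.7 (log2 ratio 2.91 ± 0.15). Lag3, a checkpoint known on IL-10 plasma cells, gave signals of 15.7, 5 and 20.8, a log2 ratio of 1.89 ± 0.26. Signals of Cd274, the ligand PD-L1, were 108, 109 and 185, for a log2 ratio of 0.23 ± 0.13. Btla read 154, 1581 and 450.1 (log2 ratio -3.12 ± 0.13). Fcrl1, an Fc receptor-like protein of B cells, gave signals of 10.4, 504 and 54.6, a log2 ratio of -5.35 ± 0.21. T cell genes such as Cd28, Ctla4 and Icos (2.70 ± 0.17, with normexp -0.02) are also in the T cell marker list given above. Cd5 and Cd9, known on B cells that release IL-10, stood at 1.56 ± 0.4 and 1.79 ± 0.13 (7.7, 3.1 and 82.9 and, for Cd9, 162, 55.4 and 335), each highest in the spleen Venus+ cells.

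Antigen presentation differed by class. For class I, there were 4 higher (28.6%) and 0 lower (0%) genes among the 14 measured on both arrays, and the median log2 ratio was 0.55 (1.22 with local background subtraction). B2m, the class I light chain, read 34067, 10015 and 22638 (log2 ratio 2.01 ± 0.13). Tapbpl, the peptide editor TAPBPR, gave signals of 420.1, 119 and 306, a log2 ratio of 2.06 ± 0.13. The transporters Tap1 and Tap2 stayed inside the threshold (-0.21 ± 0.13 and 0.39 ± 0.13). For class II, of 11 members measured on both arrays, 2 (18.2%) were higher and 5 (45.5%) lower, with a median log2 ratio of -0.66. Ciita, the master coactivator of class II, read 30.9, 381 and 105 (log2 ratio -3.38 ± 0.14). Ifi30, a thiol reductase of antigen processing, gave signals of 131, 2141 and 356, a log2 ratio of -3.78 ± 0.13. Signals of Cd86, a co-stimulatory ligand, were 4.4, 89.2 and 45, for a log2 ratio of -4.10 ± 0.41. Rfx5, a class II promoter factor, read 84.1, 9.3 and 41.4 (log2 ratio 3.42 ± 0.17). Cd74, the invariant chain, gave signals of 5177, 8767 and 4843, a log2 ratio of -0.52 ± 0.13. The invariant chain thus lay inside the threshold and its known coactivator Ciita was lower.

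Actin and motility genes were mostly lower. The 75 members measured on both arrays had a median log2 ratio of -1.76 (-0.87 with the normexp correction), and 4 (5.33%) of them were higher and 51 (68%) lower, while 2 were detected in the marrow cells alone and 6 in the B220+ cells alone. Monomer-binding proteins and filament cutters were lower. Tmsb4x, thymosin beta 4, which holds actin monomers, read 1593, 24101 and 8864 (log2 ratio -3.68 ± 0.13). Pfn1, profilin, gave signals of 173, 784 and 340.4, a log2 ratio of -1.94 ± 0.13. Signals of Cfl1, cofilin, were 10.9, 116 and 34.6, for a log2 ratio of -3.17 ± 0.2. Gsn, gelsolin, read 6.4, 183 and 11.2 (log2 ratio -4.59 ± 0.3). Branched actin networks are nucleated by the Arp2/3 complex. Actr3, the Arp3 subunit, gave signals of 334, 3929.7 and 711, a log2 ratio of -3.31 ± 0.13. Signals of Actr2, the Arp2 subunit, were 251, 2168 and 649, for a log2 ratio of -2.87 ± 0.13. Its other subunits stood at -2.16 ± 0.13 for Arpc5, -1.54 ± 0.13 for Arpc1b, -1.27 ± 0.13 for Arpc2 and 0.39 ± 0.13 for Arpc1a, the last inside the threshold, and its activator Was at -2.27 ± 0.14. Coro1a, a coronin of leukocytes, read 196, 3573 and 1468 (log2 ratio -3.95 ± 0.13). Vim, the intermediate filament vimentin, gave signals of 80.1, 1487 and 342, a log2 ratio of -3.97 ± 0.13. Signals of Cnn3, an actin-binding calponin, were 4.4, 1468 and 20, for a log2 ratio of -8.14 ± 0.41. Cnn3 had the lowest ratio of the list, at a marrow signal close to the lowest detected.

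Vil1, villin, read 65.3, 21 and 43.8 (log2 ratio 1.88 ± 0.14). Of the exchange factors and activating proteins of small GTPases, Arhgef7 was higher (2.89 ± 0.54) and many were lower, among them Dock8 (-3.64 ± 0.24), Arhgef18 (-4.80 ± 0.26), Arhgap4 (-4.92 ± 0.32), Arhgap25 (-3.26 ± 0.14) and Arhgef1 (-3.21 ± 0.21), and Dock10 and Dock11 were detected in the B220+ cells and not in the marrow cells (not detected, 22.8 and 3.2 and, for Dock11, not detected, 57.4 and 6). Msn, moesin, a linker of actin to the membrane, gave signals of 6.6, 118 and 41, a log2 ratio of -3.91 ± 0.29. Signals of Ezr, ezrin, were 160.4, 584 and 371, for a log2 ratio of -1.62 ± 0.13. Among G proteins and their regulators, there were 7 higher (20.6%) and 10 lower (29.4%) genes among the 34 measured on both arrays, and the median log2 ratio was -0.34, while 3 were detected in the marrow cells alone and 8 in the B220+ cells alone. Rgs10, a G protein regulator, gave signals of 309, 38 and 240, a log2 ratio of 3.27 ± 0.14. Rgs2, another regulator, was not detected in the marrow cells and read 680.1 in the B220+ cells and 61.1 in the spleen Venus+ cells, at least 239-fold lower. Gpr171 read 40.2, 433 and 75.2 (log2 ratio -3.18 ± 0.14).

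Replication genes were mostly lower. Of 51 members measured on both arrays, 2 (3.92%) were higher and 35 (68.6%) lower, with a median log2 ratio of -1.46 (-0.57 with the normexp correction), while 3 were detected in the B220+ cells alone. The E2F element, searched as TTTCCCGC or TTTGGCGC on both strands, was in 355 of the 13127 genes with a window (2.7%). Of the 285 measured on both arrays, 46 (16.1%) were higher and 99 (34.7%) lower, and their median log2 ratio was -0.36. In the replication list 16 of 46 genes with a window (34.8%) held it, and none held the ER stress response element. E2F factors are known to drive these genes in S phase. Matches upstream of the gene start are shown for 4 of them, on the strand of the gene, with the element or its complement in capitals; GCGGGAAA and GCGCCAAA are the complements.
Pola1, chrX:93632276-93632303, minus strand: tcatcacaggGCGCCAAAtgcactcccg
Mcm5, chr8:75109350-75109377, plus strand: aagaactttcGCGCCAAAacgtccagcc
Mcm7, chr5:138172031-138172058, minus strand: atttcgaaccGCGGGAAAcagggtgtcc
Mcm6, chr1:128359735-128359762, minus strand: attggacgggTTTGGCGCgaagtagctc
Mcm6, chr1:128359798-128359825, minus strand: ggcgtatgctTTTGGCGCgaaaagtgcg
Signals of Pola1, the catalytic subunit of the primase polymerase, were 7.1, 66.4 and 15.1, for a log2 ratio of -2.98 ± 0.27. Mcm5, a subunit of the replicative helicase, read 13.5, 86.5 and 47.1 (log2 ratio -2.44 ± 0.18). Mcm7 gave signals of 40.5, 256 and 89.2, a log2 ratio of -2.42 ± 0.14. Signals of Mcm6 were 38.2, 115 and 104, for a log2 ratio of -1.35 ± 0.14. Mcm6 held 2 matches and the other 3 genes 1 each, and all 4 were lower. Of the other genes of the list with a match upstream of the start, Pole4 (-1.68) was lower. Cdc6 (-0.52), Gins3 (-0.22) and Orc3 (0.14) lay between the thresholds.

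The helicase subunits did not all go with Mcm5, Mcm6 and Mcm7. Mcm4 read 21.3, 324 and 78 (log2 ratio -3.68 ± 0.15). Mcm3 gave signals of 8.6, 98.5 and 39, a log2 ratio of -3.27 ± 0.24. Signals of Mcm2 were 36, 30.2 and 38.8, for a log2 ratio of 0.50 ± 0.14. Mcm2 was the 1 of the 6 inside the threshold. Pcna, the sliding clamp, read 471, 1529 and 658 (log2 ratio -1.46 ± 0.13, with normexp 0.80 and with local background 1.62). Pold1, the catalytic subunit of polymerase delta, gave signals of 62, 1021 and 155, a log2 ratio of -3.80 ± 0.14. Signals of Pold2, its second subunit, were 138, 73.4 and 123, for a log2 ratio of 1.16 ± 0.13. Pold1 was the lowest of the list and Pold2 was 1 of the 2 higher, Cdc7 (1.55 ± 0.34) being the other. Dnmt1, the maintenance DNA methyltransferase, read 20.8, 227 and 69.2 (log2 ratio -3.20 ± 0.16). Uhrf1, its recruiter, gave signals of 7.5, 95.8 and 23.4, a log2 ratio of -3.43 ± 0.26.

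Mitosis genes were mostly lower or not detected in the marrow cells. The 39 members measured on both arrays had a median log2 ratio of -1.71 (-0.14 with the normexp correction), and 0 (0%) of them were higher and 26 (66.7%) lower, while 18 were detected in the B220+ cells alone. Cenpa, the centromeric histone, read 26.3, 575 and 118 (log2 ratio -4.21 ± 0.15). Top2a, topoisomerase II alpha, gave signals of 15.9, 134 and 37.3, a log2 ratio of -2.83 ± 0.17. Signals of Aurkb, the kinase Aurora B, were 114, 543 and 318, for a log2 ratio of -2.01 ± 0.13. Smc4, a condensin subunit, read 124, 1009.6 and 279 (log2 ratio -2.79 ± 0.13). Mki67, the proliferation antigen Ki-67, gave signals of 71.9, 88.2 and 101, a log2 ratio of -0.05 ± 0.14. Mki67, Ube2c (0.20 ± 0.13) and Bub1b (0.23 ± 0.15) lay at the median, unlike most of the list. For cyclins and their kinases, there were 6 higher (13%) and 22 lower (47.8%) genes among the 46 measured on both arrays, and the median log2 ratio was -0.77 (-0.09 with the normexp correction), while 1 was detected in the marrow cells alone and 3 in the B220+ cells alone. Ccna2, cyclin A2, read 8, 54.2 and 18.4 (log2 ratio -2.52 ± 0.25). Cdk1 gave signals of 22.7, 87.9 and 31.3, a log2 ratio of -1.71 ± 0.15. Signals of Ccnd2, cyclin D2, were 803, 634 and 942, for a log2 ratio of 0.59 ± 0.13. Cdk6, a G1 kinase, read 119, 34.2 and 72.9 (log2 ratio 2.04 ± 0.14). Cdkn2c, its inhibitor p18, gave signals of 87.8, 46.1 and 72.4, a log2 ratio of 1.17 ± 0.14. Signals of E2f1 were 25.4, 8.6 and 17.7, for a log2 ratio of 1.81 ± 0.19. The G1 kinase and its inhibitor p18 were thus both higher, as were E2f1, E2f2 (1.27 ± 0.18) and E2f3 (2.29 ± 0.16), while E2f4 (-1.42 ± 0.41, with normexp 0.05 and with local background 0.39) and E2f5 (-2.81 ± 0.23) were lower.

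Genes of chromatin modification were mostly lower. Of 70 members measured on both arrays, 6 (8.57%) were higher and 41 (58.6%) lower, with a median log2 ratio of -1.14 (-0.26 with the normexp correction), while 12 were detected in the B220+ cells alone. Ezh2, the Polycomb methyltransferase, gave signals of 25.6, 166 and 72.3, a log2 ratio of -2.46 ± 0.15. Signals of Ezh1, its paralog of resting cells, were 78.8, 61.3 and 114, for a log2 ratio of 0.61 ± 0.14. Suz12 read 123, 484 and 236 (log2 ratio -1.73 ± 0.13). Eed gave signals of 151, 604 and 258, a log2 ratio of -1.76 ± 0.13. The 3 core partners Ezh2, Suz12 and Eed were lower, and Ezh1 was not. Ep300, a histone acetyltransferase, was not detected in the marrow cells and read 73.9 in the B220+ cells and 17.8 in the spleen Venus+ cells, at least 26-fold lower. Crebbp, its paralog, read 3.2, 40.5 and 10.4 (log2 ratio -3.42 ± 0.55). Kdm7a, a histone demethylase, gave signals of 166, 32.7 and 99.9, a log2 ratio of 2.59 ± 0.14. Among histones themselves, the 18 members measured on both arrays had a median log2 ratio of -0.56, and 1 (5.56%) of them was higher and 5 (27.8%) lower, while 1 was detected in the B220+ cells alone. H3f3a, the replacement histone H3.3, read 256, 2349.8 and 448 (log2 ratio -2.96 ± 0.13). H3f3b, the second H3.3 gene, gave signals of 668, 3063 and 1153, a log2 ratio of -1.95 ± 0.13. Signals of H1f2, a linker histone, were 439, 245 and 539.7, for a log2 ratio of 1.09 ± 0.13, with normexp -0.54 and with local background -0.10.

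Splicing and polyadenylation factors lay on the same side. There were 5 higher (7.25%) and 36 lower (52.2%) genes among the 69 measured on both arrays, and the median log2 ratio was -1.07, while 1 was detected in the marrow cells alone and 3 in the B220+ cells alone. Ell2, an elongation factor known to steer the switch to secreted immunoglobulin mRNA, gave signals of 94.9, 13.3 and 84.6, a log2 ratio of 3.08 ± 0.15. Signals of Ell3, its paralog, were 19.6, 200.3 and 54.6, for a log2 ratio of -3.11 ± 0.16. Hnrnpll, a splicing factor known to control the CD45 isoforms of plasma cells, was not detected in the B220+ cells and read 15.6 in the marrow and 15.8 in the spleen Venus+ cells, at least 14.2-fold higher. Hnrnph1 gave signals of 303, 2151 and 718, a log2 ratio of -2.58 ± 0.13. Signals of Ptbp2 were 14.9, 292 and 64.5, for a log2 ratio of -4.05 ± 0.17. Srsf1 read 30.3, 229 and 91 (log2 ratio -2.67 ± 0.14). Sf3b1 gave signals of 4.8, 92.1 and 20.4, a log2 ratio of -4.02 ± 0.38. Ell2 and Hnrnpll thus stood against the direction of the list. The cleavage stimulation factor Cstf2 was at -1.78 ± 0.15 and Ptprc, whose B220 isoform defined the sort, at -2.47 ± 0.13.

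Interferon-induced genes held more lower than higher members. Of 57 members measured on both arrays, 8 (14%) were higher and 28 (49.1%) lower, with a median log2 ratio of -1.0 (-0.30 with the normexp correction), while 3 were detected in the marrow cells alone and 9 in the B220+ cells alone. Samd9l, an antiviral factor, was not detected in the marrow cells and read 1609.9 in the B220+ cells and 145 in the spleen Venus+ cells, at least 566-fold lower. Ms4a4c, a relative of CD20, was not detected in the marrow cells and read 906 in the B220+ cells and 28.1 in the spleen Venus+ cells, at least 319-fold lower. Signals of Sp100, a nuclear body protein, were 29.9, 395 and 60.5, for a log2 ratio of -3.48 ± 0.14. Stat2 read 20.2, 184 and 51.7 (log2 ratio -2.94 ± 0.16). Trim30a gave signals of 35, 276 and 89, a log2 ratio of -2.74 ± 0.14. Signals of Isg20, an exonuclease, were 1475, 113 and 882, for a log2 ratio of 3.95 ± 0.13. Lgals3bp, a secreted galectin-binding glycoprotein, read 283, 11.4 and 180.4 (log2 ratio 4.88 ± 0.16, with normexp -0.18). Gbp5 gave signals of 148, 23.2 and 80.8, a log2 ratio of 2.92 ± 0.14. Stat2 and Irf9 (-1.77 ± 0.14), which carry the type I interferon signal, were lower, while Irf7 (0.21 ± 0.17) and Mx1 (0.21 ± 0.19) stayed at the median. For innate receptors, the 25 members measured on both arrays had a median log2 ratio of -0.27, and 3 (12%) of them were higher and 10 (40%) lower, while 4 were detected in the B220+ cells alone. Ly86, MD-1, the partner of CD180, read 25.3, 1498 and 1332 (log2 ratio -5.64 ± 0.15). Cd180, the receptor RP105, gave signals of 16, 41.5 and 59.1, a log2 ratio of -1.13 ± 0.17. Signals of Ly96, MD-2, the partner of TLR4, were 257, 60 and 245, for a log2 ratio of 2.34 ± 0.13. Tlr4 read 15.8, 33 and 30.9 (log2 ratio -0.82 ± 0.17). Tlr1 gave signals of 54.6, 386 and 103, a log2 ratio of -2.58 ± 0.14. The TLR4 partner was higher and the CD180 partner far lower.

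Immediate-early genes lay on both sides. There were 10 higher (24.4%) and 14 lower (34.1%) genes among the 41 measured on both arrays, and the median log2 ratio was -0.26, while 4 were detected in the B220+ cells alone. Fos, a part of the factor AP-1, read 513, 8 and 1549 (log2 ratio 6.25 ± 0.18). Jun, its partner, gave signals of 431, 48.1 and 905, a log2 ratio of 3.41 ± 0.13. Signals of Btg1, an antiproliferative factor of resting lymphocytes, were 42.7, 7146 and 1250.1, for a log2 ratio of -7.14 ± 0.14. Dusp2, a phosphatase of MAP kinases, read 8.2, 444 and 104 (log2 ratio -5.52 ± 0.25). Gadd45g gave signals of 9.1, 238 and 22, a log2 ratio of -4.47 ± 0.23. Signals of Egr1 were 64.9, 142 and 494, for a log2 ratio of -0.89 ± 0.14. Fos, Jun and Egr1 were each brightest in the spleen Venus+ cells. Among survival genes, of 51 members measured on both arrays, 10 (19.6%) were higher and 14 (27.5%) lower, with a median log2 ratio of -0.45, while 1 was detected in the marrow cells alone and 5 in the B220+ cells alone. Bcl2 gave signals of 154, 17 and 105, a log2 ratio of 3.42 ± 0.14, with local background -0.06. Signals of Mcl1, a survival factor on which plasma cells depend, were 1795, 4241 and 2259.7, for a log2 ratio of -1.0 ± 0.13. Bcl2l11, the killer BIM, read 11.4, 3.1 and 14.7 (log2 ratio 2.12 ± 0.37, with local background -0.30). Bcl2l1, BCL-XL, gave signals of 25.5, 21.5 and 29.8, a log2 ratio of 0.49 ± 0.15. Bik, a BH3-only protein of the ER, was not detected in the B220+ cells and read 9.7 in the marrow and 2.2 in the spleen Venus+ cells, at least 8.84-fold higher. Bcl2 was higher, and Mcl1 lay at the edge of the threshold without passing it.

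The genes of lowest ratio under the signal rule were Btg1, Cd72, Cxcr5, Scd1, Id3, Nrm, Ly86, Bin1, Dusp2 and Tnfaip8l2. Cd72, an inhibitory receptor of B cells, read 8.2, 919 and 434 (log2 ratio -6.56 ± 0.25). Id3, an inhibitor of E proteins, gave signals of 18.8, 1361 and 76.8, a log2 ratio of -5.93 ± 0.16. Signals of Nrm, the nuclear envelope protein nurim, were 8, 489.5 and 27.2, for a log2 ratio of -5.69 ± 0.25. Bin1, a membrane-bending protein, read 19.8, 1154 and 204 (log2 ratio -5.62 ± 0.16). Tnfaip8l2, a brake on immune activation, gave signals of 7.3, 391 and 32.4, a log2 ratio of -5.50 ± 0.27. Btg1, Cd72, Cxcr5 and Ly86 had signals of 434 or more in the spleen Venus+ cells, whereas Nrm, Id3 and Tnfaip8l2 were at 76.8 or less there. Scd1, Bin1 and Dusp2 lay between. Of the genes not detected in the marrow cells, the largest bounds after Samd9l, Ms4a4c and S1pr1 were those of Dek (not detected, 850.4 and 82.5, at least 299-fold lower), a chromatin protein, and Sorl1 (not detected, 833 and 68.9, at least 293-fold lower), a sorting receptor.

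**Figure D5:**
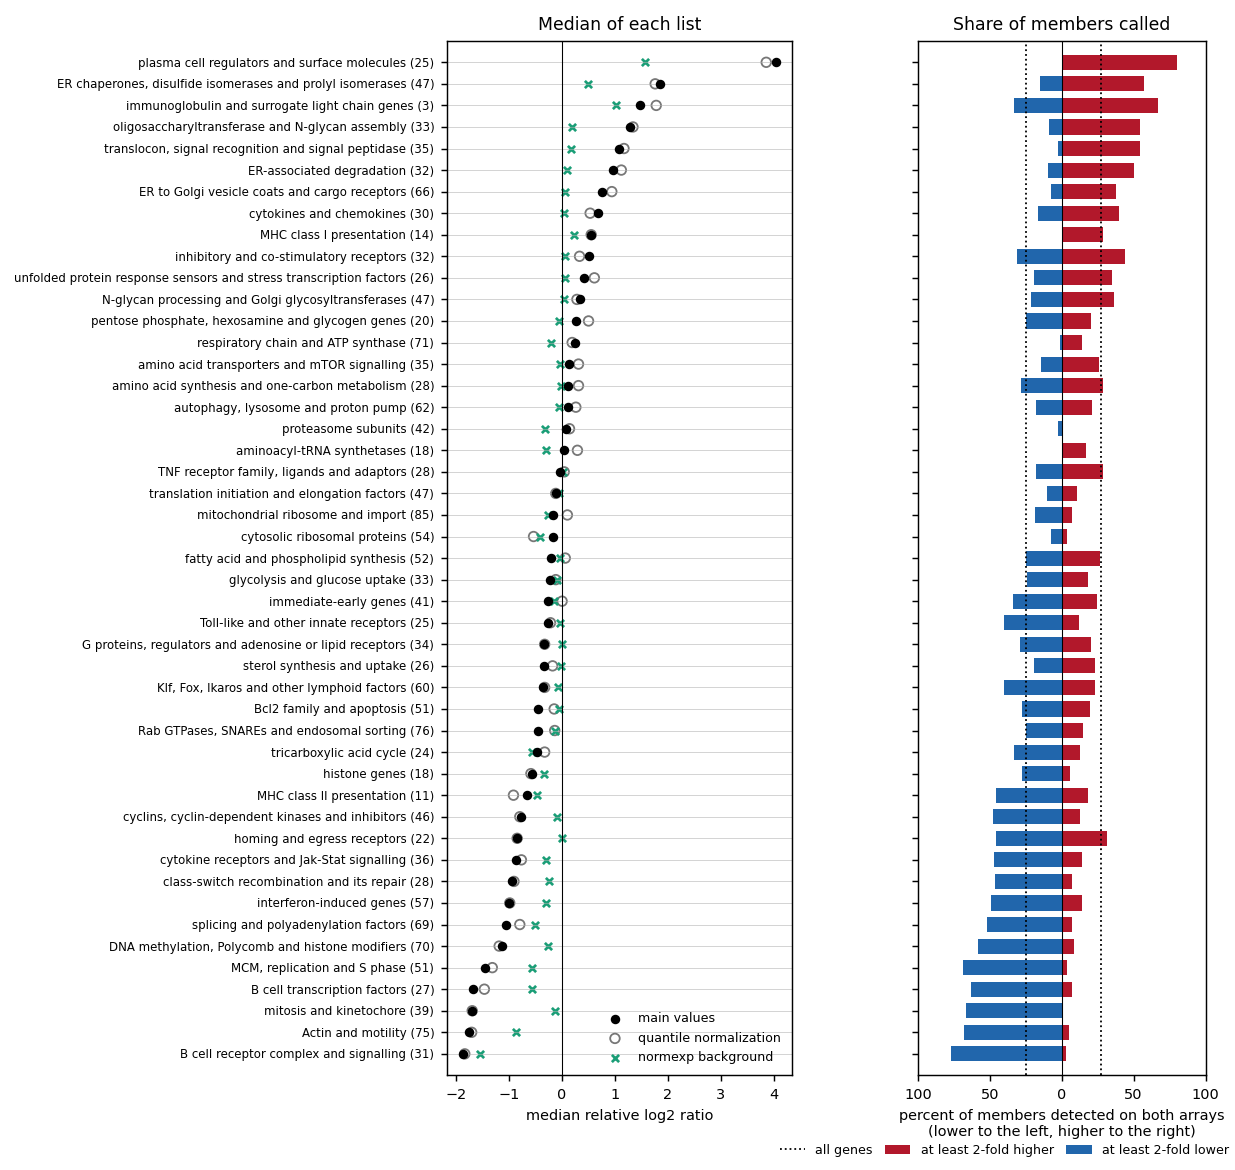
Left, the median relative log2 ratio of each gene list (number of members measured on both arrays in brackets) in the main values (black), after quantile normalization (open circles) and with normexp background correction (green crosses). Right, the percentage of those members at least 2-fold higher (red, to the right) or lower (blue, to the left), with dotted lines at the 27.3% and 25.1% of all genes. Plasma cell regulators lie at the top, followed by the folding, immunoglobulin, glycosylation and translocation lists. Actin, mitosis and antigen receptor lists lie at the bottom.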

How the data were processed

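RNA of sorted cells was amplified, labelled with Cy5 and hybridised to 3D-Gene mouse oligo arrays, per the labels' protocols. The deposited intensity values are spot medians from which the authors subtracted the blank level; they scaled each array to a median of 25 over detected probes and left undetected probes empty, per the labels. The scanner intensity files were used to check those values (0 detection calls differed) and for alternatives. Of 23473 probes 16631 carried 1 gene symbol, none several and 6842 none; 3947 symbols were updated and 59 were ambiguous. A gene with several probes was read from the brightest probe detected on both arrays. Ratios were taken with Python 3.11.15, numpy 2.4.6 and pandas 2.3.3, and normexp (offset 50) was run with limma 3.58.1 in R 4.3.3. The alternatives were unrounded scanner values, no centring, scaling to probes detected on all arrays, quantile normalization, normexp, local background, another blank level, no dim genes, the mean over probes and a 4-fold threshold. Precision is limited by the single array per population. The procedure was run on simulated data with the spot error alone, where 185 of 200 genes with a set change past 2-fold were recovered. The simulation held no variation between probes, sorts or animals, so it does not show how well the calls would repeat. Gene lists, thresholds and named genes (the 10 highest and 10 lowest ratios above 3 times the lowest detected signal, the 5 largest bounds either way, list extremes, and members named for their role) were chosen with earlier results of these data known. Lists share some genes.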

Additional observations from a re-analysis of the deposited data

Results flagged for a closer look

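Of the 10770 genes with both ratios, 6 were at least 2-fold higher in 1 plasma cell sample and at least 2-fold lower in the other, each relative to the same B220+ array; with 1 array each, the difference was not tested. Signals of Plac8, a small cysteine-rich protein of myeloid and B cells, were 383, 2547 and 5558, for a log2 ratio of -2.49 ± 0.13. Apoe, apolipoprotein E, read 95.6, 479 and 2472 (log2 ratio -2.08 ± 0.13). Myo1e, a class I myosin, gave signals of 31, 166 and 349.7, a log2 ratio of -2.17 ± 0.14. Signals of Abca3, a lipid transporter, were 4, 10.8 and 35.6, for a log2 ratio of -1.19 ± 0.45, with normexp 0.00. These 4 were lower in the marrow cells than in B220+ cells and highest in the spleen Venus+ cells. Tsc22d1 read 172, 86.5 and 33.2 (log2 ratio 1.23 ± 0.13). A930015D22Rik gave signals of 54.3, 17.1 and 6.8, a log2 ratio of 1.91 ± 0.15. These were higher in the marrow cells and lowest in the spleen Venus+ cells.

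A signal on the array that the comparison did not use was seen for 221 genes detected in spleen Venus+ cells alone. The brightest were Pstpip2 (57.6), Npr2 (52.5), Izumo1r (32.3) and Gpr4 (24.0).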

How the results depend on the processing

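At a 4-fold threshold 1196 genes were higher and 1050 lower, and with normexp background correction 322 and 985. Normexp and local background subtract a background that follows the spot, and normexp also adds an offset of 50. Local background alone gave 2212 higher and 2463 lower. Under unrounded scanner values, no centring, scaling to shared probes, quantile normalization, local background, blank spots without a probe, leaving out dim genes and averaging probes, the counts ran from 2212 to 3061 higher and from 2075 to 3325 lower. Of 59 list medians, 24 moved by over 1.5-fold with normexp, 7 with local background and at most 5 under each other setting. List medians, each inside 2-fold in the main values, changed sign in 33 instances. Without centring these were proteasome subunits (-0.16), autophagy (-0.14), aminoacyl-tRNA synthetases (-0.22), amino acid synthesis and one-carbon metabolism (-0.12), amino acid transporters and mTOR signalling (-0.12), respiratory chain and ATP synthase (-0.00) and megakaryocyte and platelet markers (-0.13); under quantile normalization TNF receptor family (0.04), mitochondrial ribosome and import (0.10), fatty acid and phospholipid synthesis (0.06), immediate-early genes (0.00), monocyte and macrophage markers (-0.12), erythroid markers (-0.36) and megakaryocyte and platelet markers (-0.27); with normexp TNF receptor family (0.01), proteasome subunits (-0.33), autophagy (-0.06), aminoacyl-tRNA synthetases (-0.31), amino acid synthesis and one-carbon metabolism (-0.02), amino acid transporters and mTOR signalling (-0.04), pentose phosphate genes (-0.06), respiratory chain and ATP synthase (-0.21) and monocyte and macrophage markers (-0.02); with local background proteasome subunits (-0.14), autophagy (-0.00), translation initiation and elongation factors (0.01), pentose phosphate genes (-0.22) and G proteins (0.01); without dim genes sterol synthesis and uptake (0.02), immature and precursor B cell markers (-1.38), erythroid markers (-1.86) and megakaryocyte and platelet markers (-0.18); and with scaling to shared probes TNF receptor family (0.01). With normexp the genes with an ER stress response element had a median of 0.12. The named genes that moved by more than the spot error (1.5-fold for bounds) numbered 459 of 476 with normexp, 376 of 453 with local background, 385 of 476 without centring, 269 of 476 under quantile normalization, 105 of 458 with another blank level and 2 with averaged probes. Among named genes past 2-fold, normexp changed the sign of Abca3 (0.00), Ccr6 (0.49), E2f4 (0.05), Get1 (0.00), H1f2 (-0.54), Icos (-0.02), Lgals3bp (-0.18), Lman1 (-0.38), Mt1 (-0.28), Ndufs1 (0.26), Ostc (-1.42), Pcna (0.80), Pdk2 (-0.04), Rpl41 (-0.14), Rps25 (0.06), Sesn1 (0.13), Sgms1 (0.33), Slc38a2 (-0.04), Srp19 (-0.00), Ssr3 (-0.34), Stt3a (-0.46), Tmed10 (-0.09), Tusc3 (0.12), Ulk2 (0.02), and local background that of Bcl2 (-0.06), Bcl2l11 (-0.30), E2f4 (0.39), H1f2 (-0.10), Itgal (-0.02), Ostc (-1.09), Pcna (1.62), Rps25 (0.81), Sesn1 (0.98), Ulk2 (0.02). No other setting named here changed the sign of such a gene. No paired analysis was possible because each group has 1 array. Dim probes limit the values: the lowest detected signals were 2.4 in the marrow and 1.3 in the B220+ cells.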
